A study of Caenorhabditis elegans with 8 samples.

Results

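In *C. elegans* L4 animals, 112 genes had their lowest transcript level in *mut-16* mutants at 20ºC and were higher in each of the other genotype and temperature combinations. They were chosen by a rule on measured values, as CPM, the count of a gene per 1000000 counts of its library. Both *mut-16* libraries at 20ºC had to lie below the other 6 libraries, and their mean had to be at most 0.5 of the wild-type mean at 20ºC and at most 0.5 of the *mut-16* mean at 25ºC. The wild-type mean at 20ºC had to be at least 1 CPM. Of 46453 rows in the tables, 13019 reached that level, 1001 of these had both *mut-16* libraries at 20ºC lowest, and 172 also met the fold limits. A further 60 were then dropped by the class in their name, among them 31 cuticle collagens (*col-*) and 18 C-type lectins (*clec-*), which left the 112 genes described here.

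The libraries are mRNA-seq of whole L4 hermaphrodites, with 2 replicates of each of 4 groups. Wild-type was strain N2, and the mutant carried the *pk710* allele of *mut-16*, the only genetic difference that the labels give. Synchronized larvae of both genotypes grew either at 20ºC, with harvest at roughly 56 h, or under heat stress at 25ºC, with harvest at roughly 39 h, so that temperature and age in hours cannot be told apart. RNA was extracted from pools of many whole animals, in which fewer cells of a type and less RNA per cell cannot be told apart.

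MUT-16 is the scaffold of *Mutator* foci, perinuclear bodies of germ cells in which 22G small RNAs are amplified on target transcripts. These small RNAs are bound by worm-specific Argonaute proteins and mostly silence their targets. The L4 stage is when the hermaphrodite germline makes sperm before it turns to oocytes, and when the last larval cuticle is replaced by that of the adult.

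Library totals lay between 9914054 and 13227929 counts. In the wild-type libraries, *mut-16* was at 27.9 and 27.3 CPM at 20ºC and at 20.8 and 20.9 CPM at 25ºC. In the mutant libraries it was at 5.55 and 8.13 CPM at 20ºC and at 7.17 and 7.94 CPM at 25ºC, with no overlap between the genotypes.

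The rule fixed the direction of 2 comparisons, and their values are a description with no test. The median log2(fold change) of the 112 genes was -1.37 in *mut-16* mutants against wild-type at 20ºC and 1.74 between 25ºC and 20ºC in *mut-16* mutants. At an absolute log2(fold change) above 1 and an edgeR adjusted p of at most 0.05, 74 were called lower in the mutant at 20ºC, where 3.03% of all 13972 genes tested were, and 89 were called higher with heat in *mut-16*, against 4.57% of all genes tested. Nothing is read from these counts. The first falls to 24 without replicate 2 of *mut-16* at 20ºC and to 48 without replicate 1 of wild-type at 20ºC, and the second to 59 without replicate 2 of *mut-16* at 20ºC. A rule on 7 libraries is looser, and 206 genes met it without that replicate and 166 without replicate 1 of *mut-16* at 20ºC, of which 90 each time are among the 112.

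The limits of the rule cut through a continuous range of values. The ratio of the *mut-16* mean to the wild-type mean at 20ºC was 0.497 for *osm-7*, 0.498 for Y52B11B.1 and 0.4998 for *gyg-2*, a glycogenin, and just outside it was 0.502 for R12C12.10, 0.502 for R02D1.2 and 0.503 for R03A10.5. The ratio of the *mut-16* mean at 20ºC to that at 25ºC was 0.496 for *fmo-5*, a flavin-containing monooxygenase, 0.496 for *cyp-35C1* and 0.499 for *cyp-33E3*, and outside the limit 0.501 for F38B2.6, 0.503 for T20D4.11 and 0.505 for *klp-15*, a kinesin. At the floor, the wild-type mean at 20ºC was 1.02 CPM for *idpc-3*, 1.04 CPM for *dod-23* and 1.05 CPM for *wdr-54*, and 0.960 CPM for F59A6.10, 0.976 CPM for C17B7.4 and 0.976 CPM for *vap-2* below it.

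**Figure D1:**
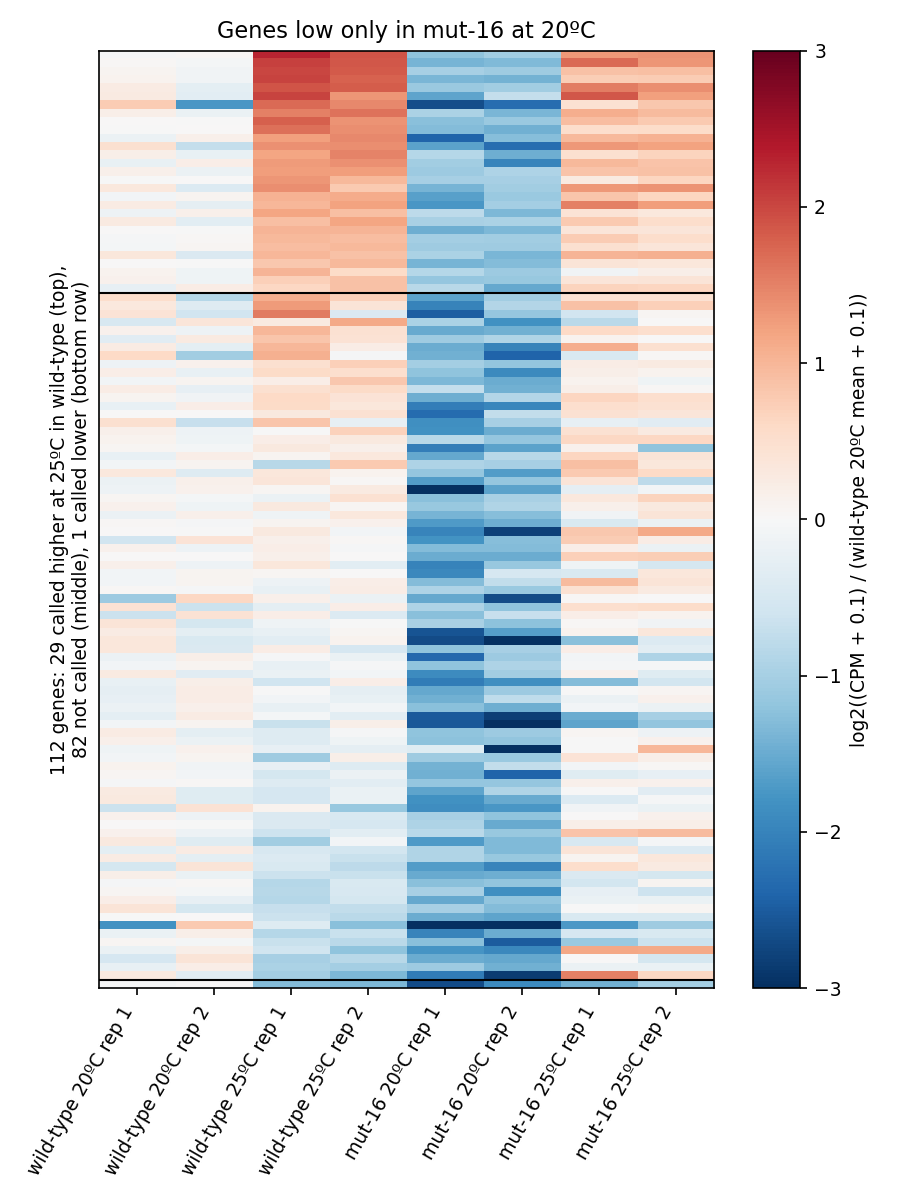
Each row is 1 of the 112 genes and each column 1 of the 8 libraries, coloured by the log2 ratio of CPM to the wild-type mean at 20ºC with 0.1 added to both, from blue (lower) to red (higher). Lines separate the 29 genes called higher at 25ºC in wild-type (top), the 82 not called and the 1 called lower (bottom). Both *mut-16* columns at 20ºC are blue throughout, as the rule requires, while the wild-type columns at 25ºC run from red to blue.

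Every gene of the 112 passed the filter on low counts, but most were weakly expressed. The wild-type mean at 20ºC was at least 100 CPM for 8 genes, at least 10 CPM for 41 and at least 5 CPM for 50, and between 1 and 5 CPM for 62. A count of 0 occurred in a *mut-16* library at 20ºC for 4 genes, F36H12.9, C33A12.17, *dot-1.3* and T10C6.8. Both *mut-16* libraries at 20ºC had at most 3 counts for *dot-1.3*, of the DOT1 histone methyltransferase family (2 and 0 counts), F02E8.4 (2 and 1 counts) and F26F2.10 (1 and 2 counts), so no fold is given for these against that group. For 21 genes a deposited count was more than 0.01 from a whole number, as arises where reads are shared with transcripts of other genes.

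The 2 comparisons whose size the rule did not limit were that of the temperatures in wild-type animals and that of the genotypes at 25ºC. Wild-type at 20ºC and *mut-16* at 25ºC were both groups in which a member had to be high. That pulls toward lower values with heat in wild-type and toward higher values in the mutant at 25ºC. The rule also required a rise with heat in *mut-16*, which favours genes that rise with heat in both genotypes. Wild-type at 25ºC entered the rule only by having to exceed the *mut-16* libraries at 20ºC, which limits falls with heat in wild-type. The net pull of the choice was not tested, so the shares called in both comparisons are a description.

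In wild-type animals, 29 of the 112 genes (25.9%) were called higher at 25ºC than at 20ºC, against 5.30% of all genes tested, and 1 gene (0.893%) was called lower, against 4.19%. The rule pulls these shares both ways, as given above, and the net pull was not tested, so nothing is concluded from them. The median log2(fold change) was 0.37 (quartiles -0.05 and 1.15), beside -0.00 over all genes tested, and 83 of the 112 genes lay above 0. Among the genes called higher were members of the apical matrix and cuticle (*bli-5*, *lpr-7*, *nas-27*), the secreted protein OSM-7, 2 genes of the chondroitin proteoglycan class (*cpg-22*, *cpg-23*), a UDP-glucuronosyltransferase (*ugt-66*), a chemoreceptor (*str-146*) and 4 adjacent genes of the R12E2 interval. With each library left out in turn, between 26 and 34 members were called in either direction, beside 30 (26.8%) with all libraries, against 9.48% of all genes tested.

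The same 112 genes were then compared between the genotypes at 25ºC. Of the 112, 3 (2.68%) were called higher in *mut-16* mutants, against 3.16% of all genes tested, and 4 (3.57%) were called lower, against 8.65%. The median log2(fold change) was -0.15 (quartiles -0.61 and 0.14), beside 0.00 over all genes tested. The share called was thus near or below the background in each direction. The rule required *mut-16* at 25ºC to be high, so nothing is concluded from this. The background also holds sperm genes, of which 64 of 76 tested were called lower and none is a member. By the adjusted p alone, with no limit on fold change, 19 (17%) were lower, against 12.5%, and 5 (4.46%) were higher, against 7.68%. The count rests on few libraries. In either direction 7 members (6.25%) were called, against 11.8% of all genes tested, but 11 without replicate 2 of wild-type at 25ºC and 4 without replicate 1 of *mut-16* at 25ºC.

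Scaling by library totals in place of TMM moved the median of all genes by -0.25 with heat in wild-type and by 0.18 with the mutation at 25ºC. Relative to that shift the members did not move: their median stood 0.37 above that of all genes with heat in wild-type under both scalings, and -0.15 from it with the mutation at 25ºC. CPM values in the sentences below are on library totals, and log2(fold change) values are on TMM.

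**Figure D2:**
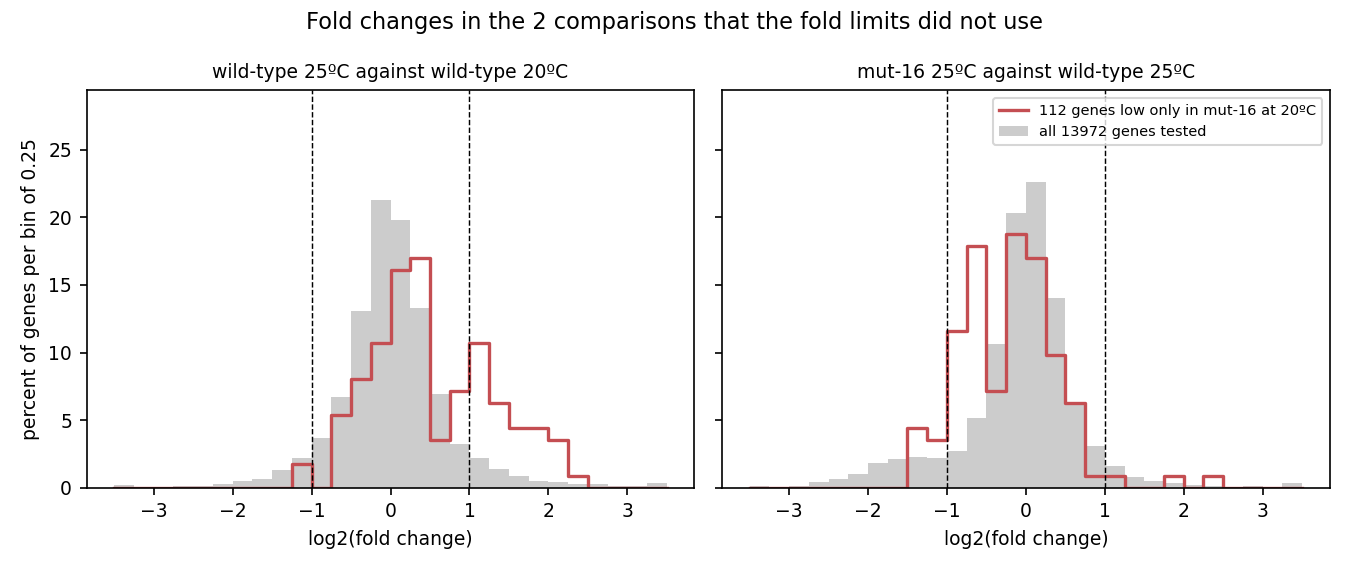
Percent of genes in each bin of 0.25 of log2(fold change), for all 13972 genes tested (grey bars) and the 112 genes (red line), in wild-type 25ºC against 20ºC (left) and *mut-16* against wild-type at 25ºC (right). Dashed lines mark -1 and 1, and values past the ends are drawn in the end bins. On the left the red line has a shoulder to the right of 1, where 29 genes were called higher, and on the right most of it lies between the dashed lines.

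Neighbouring genes on chromosome I were among the most abundant members. R12E2.15, R12E2.14, R12E2.6 and R12E2.7 lie at 4148832 to 4154452 in WBcel235, on both strands, and are consecutive protein-coding genes of 2 exons each, with 300, 320, 345 and 399 bases of exon. R12E2.7 was at 186 and 163 CPM in wild-type at 20ºC, at 704 and 623 CPM in wild-type at 25ºC, at 88.2 and 83.4 CPM in *mut-16* at 20ºC and at 323 and 325 CPM in *mut-16* at 25ºC. R12E2.14 was at 118 and 103, then 447 and 373, then 42.6 and 40.9, then 184 and 187 CPM in the same order of groups. In both, wild-type at 25ºC was highest, followed by *mut-16* at 25ºC and wild-type at 20ºC, and *mut-16* at 20ºC was lowest, with no overlap between any of the groups.

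R12E2.15 was at 180 and 183 CPM in wild-type at 20ºC, at 576 and 479 CPM in wild-type at 25ºC, at 74.3 and 67.1 CPM in *mut-16* at 20ºC and at 263 and 266 CPM in *mut-16* at 25ºC. R12E2.6 was far lower, at 6.24 and 7.77, 15.9 and 13.2, 4.03 and 2.71, and 9.29 and 8.77 CPM, and had the same order of groups. Per kilobase of exon, the means in wild-type at 25ºC were 1760 CPM for R12E2.15, 1660 for R12E2.7 and 1280 for R12E2.14, beside 42.2 for R12E2.6.

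With heat in wild-type, the log2(fold change) was 2.18 ± 0.14 (SE, edgeR adjusted p = 4.6e-07) for R12E2.7, 2.15 ± 0.15 (adjusted p = 5.8e-07) for R12E2.14, 1.79 ± 0.15 (adjusted p = 2.4e-06) for R12E2.15 and 1.31 ± 0.23 (adjusted p = 0.0012) for R12E2.6. At 25ºC, the mutant was below wild-type by a log2(fold change) of -1.32 ± 0.14 (adjusted p = 3.7e-05) for R12E2.14, -1.21 ± 0.14 (adjusted p = 4.7e-05) for R12E2.7 and -1.18 ± 0.15 (adjusted p = 0.00011) for R12E2.15. R12E2.6 had -0.87 ± 0.22 (adjusted p = 0.014) and was not called, since its fold change was under the limit. These comparisons share the wild-type libraries at 25ºC. Without replicate 1 of that group, R12E2.15 was at -0.98 and under the limit, as with scaling by totals (-0.99), and without replicate 2, R12E2.6 was at -1.05 and called. R12E2.14 and R12E2.15 were among the genes with counts that are not whole.

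A further 2 pairs of members lay with 1 other gene between them. On chromosome V, Y39B6A.10 had a log2(fold change) with heat in wild-type of -0.07 ± 0.41 (adjusted p = 0.93) and *cpg-23* of 1.64 ± 0.32 (adjusted p = 0.0024), and the difference between these genes was not tested. On chromosome X, Y73B3A.1 was at 9.45 and 5.34 CPM in wild-type at 20ºC, 5.92 and 7.94 CPM in wild-type at 25ºC, 1.07 and 0.0970 CPM in *mut-16* at 20ºC and 3.04 and 5.50 CPM in *mut-16* at 25ºC. Its neighbour Y73B3A.4 was called lower in the mutant at 25ºC, at -1.31 ± 0.41 (adjusted p = 0.036), with 2.44 and 2.01 CPM in wild-type and 0.843 and 1.22 CPM in *mut-16*. That call was lost with any of the 4 libraries at 25ºC left out (adjusted p from 0.072 to 0.25), with DESeq2 (adjusted p = 0.14) and with scaling by totals (adjusted p = 0.057), and both genes shared reads with other transcripts.

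**Figure D3:**
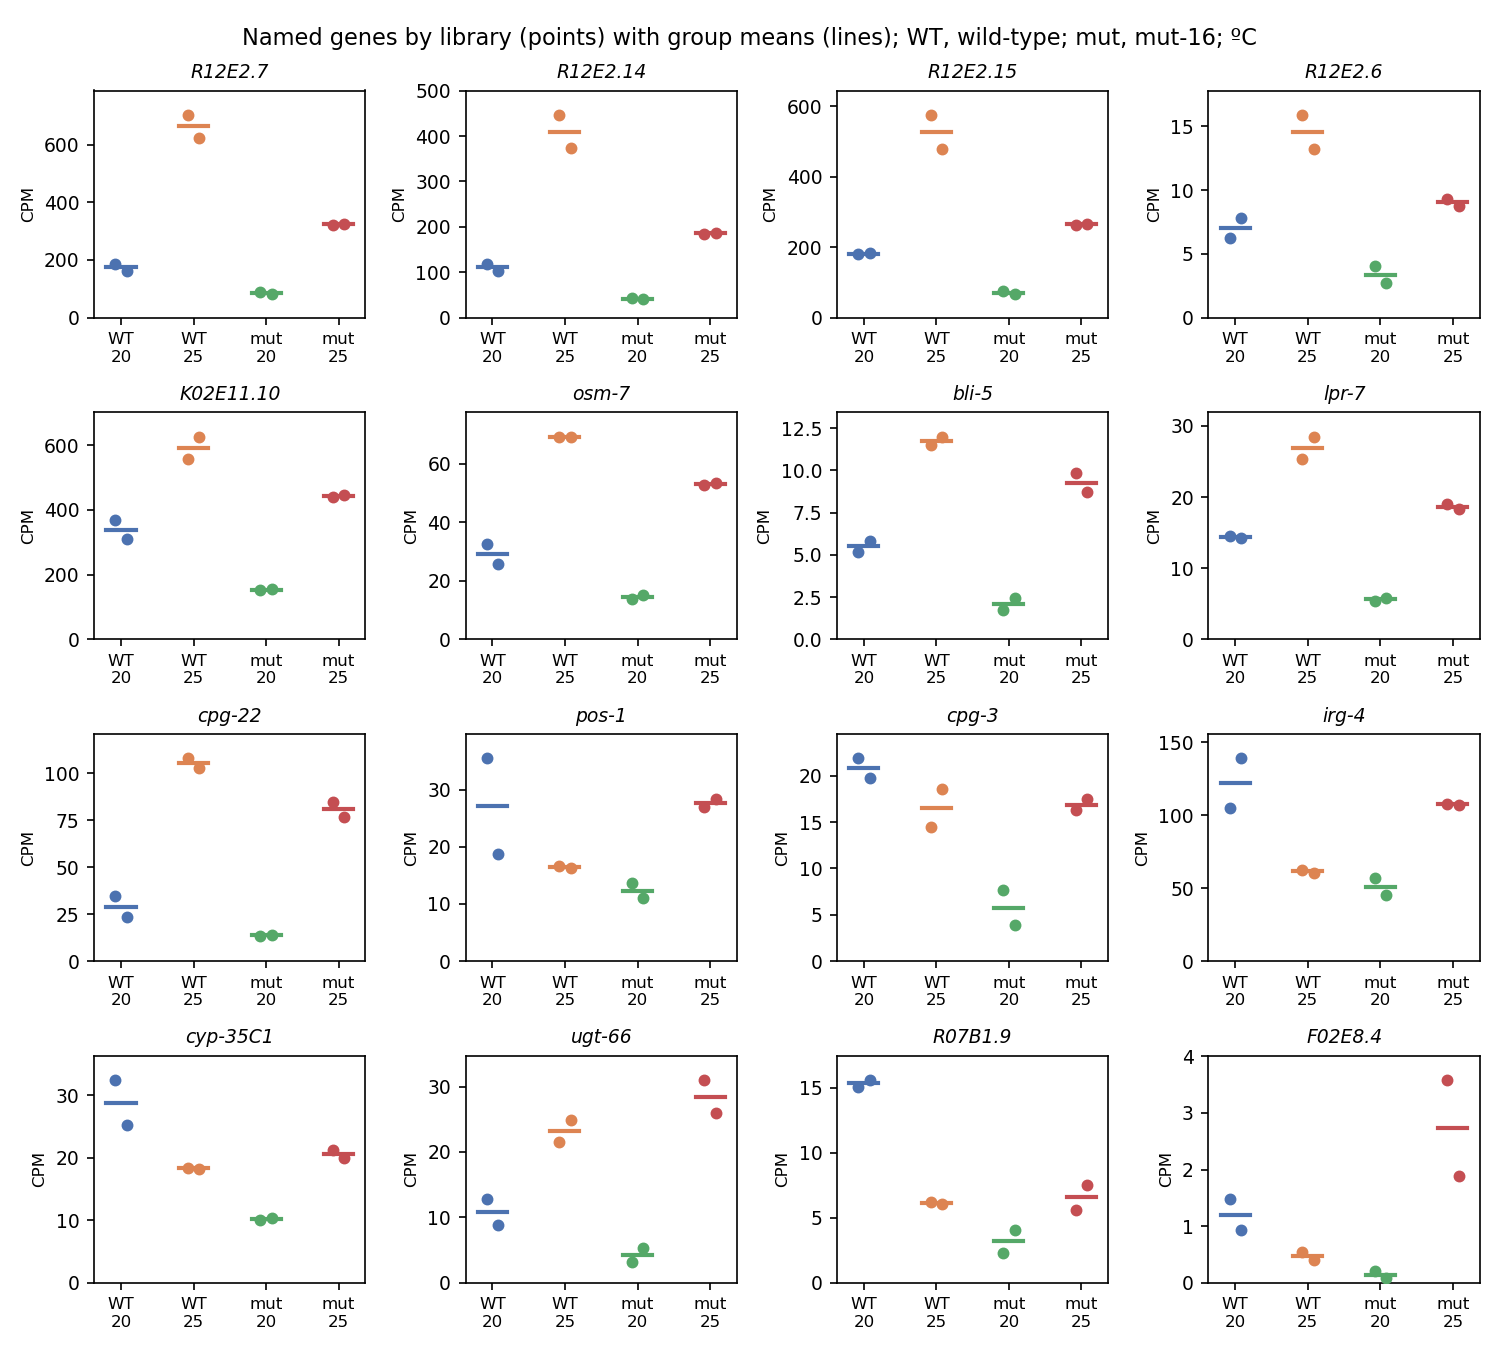
CPM of 16 named genes in each library (points, 2 per group) with the group mean (line), on a linear axis from 0 that differs between panels. WT is wild-type and mut is *mut-16*, at 20 or 25ºC. In the R12E2 genes, K02E11.10, *osm-7*, *bli-5*, *lpr-7* and *cpg-22* wild-type at 25ºC is highest, while *irg-4*, *cyp-35C1* and R07B1.9 are highest in wild-type at 20ºC and F02E8.4 in *mut-16* at 25ºC.

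Among the other abundant members, K02E11.10 was at 370 and 309 CPM in wild-type at 20ºC, 557 and 627 CPM in wild-type at 25ºC, 152 and 154 CPM in *mut-16* at 20ºC and 439 and 445 CPM in *mut-16* at 25ºC. Y47D7A.15 was at 285 and 279, 576 and 575, 102 and 111, and 361 and 361 CPM. H10E21.4 was at 85.3 and 91.6, 167 and 173, 42.3 and 41.9, and 124 and 114 CPM. These 3 had the group order of the R12E2 genes, with replicates close together and no overlap between groups.

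With heat in wild-type, Y47D7A.15 rose by a log2(fold change) of 1.28 ± 0.12 (adjusted p = 6.0e-06), H10E21.4 by 1.19 ± 0.13 (adjusted p = 2.4e-05) and K02E11.10 by 1.05 ± 0.13 (adjusted p = 5.4e-05). K02E11.10 was near the limit and was at 0.94 without replicate 2 of wild-type at 20ºC, and at 0.80 with scaling by totals, where H10E21.4 was at 0.94. F15B9.8 was at 134 and 163, 208 and 243, 73.2 and 65.2, and 174 and 178 CPM, and its log2(fold change) with heat in wild-type was 0.85 ± 0.14 (adjusted p = 0.00095), below the limit, or 1.02 without replicate 2 of wild-type at 20ºC.

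C30G12.2, C04G6.2 and *irg-4*, also among the 10 members with the most counts in wild-type at 20ºC, did not share that order. C30G12.2 was at 251 and 255 CPM in wild-type at 20ºC, 162 and 144 CPM in wild-type at 25ºC, 90.3 and 85.1 CPM in *mut-16* at 20ºC and 185 and 184 CPM in *mut-16* at 25ºC. C04G6.2 was at 55.9 and 59.6, 43.9 and 46.3, 25.9 and 25.7, and 64.4 and 62.6 CPM. In both genes the wild-type libraries at 25ºC were below those at 20ºC in CPM, and on TMM the log2(fold change) was -0.47 ± 0.13 (adjusted p = 0.023) for C30G12.2 and -0.11 ± 0.13 (adjusted p = 0.63) for C04G6.2.

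The largest rises with heat in wild-type beside the R12E2 genes were in C28G1.10, C10C5.4 and *cpg-22*. The *cpg-22* gene, of the chondroitin proteoglycan class, was at 34.4 and 23.6 CPM in wild-type at 20ºC, 108 and 103 CPM in wild-type at 25ºC, 13.3 and 14 CPM in *mut-16* at 20ºC and 84.7 and 77.0 CPM in *mut-16* at 25ºC. Its log2(fold change) with heat in wild-type was 2.12 ± 0.17 (adjusted p = 1.6e-06) and with the mutation at 25ºC -0.56 ± 0.16 (adjusted p = 0.023). C10C5.4 was at 8.08 and 7.56, 32.8 and 28.6, 2.93 and 3.05, and 25.7 and 19.6 CPM, with 2.23 ± 0.19 (adjusted p = 3.0e-06) for heat in wild-type. C28G1.10 was at 2.63 and 2.77, 13.5 and 10.2, 1.11 and 1.27, and 6.84 and 7.03 CPM, with 2.38 ± 0.25 (adjusted p = 1.7e-05). In all of these the 2 groups at 25ºC lay above the 2 groups at 20ºC.

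Genes of the apical matrix and the moult build and remodel the cuticle. Of 140 such genes tested, 20 were called higher and 17 lower with heat in wild-type, where 5.30% and 4.19% of all genes tested were. In the mutant at 25ºC, 19 were called higher and 0 lower, against 3.16% and 8.65% of all genes tested. In the mutant at 20ºC, 4 were called higher and 3 lower, against 1.53% and 3.03% of all genes tested. These 3 are the members, which the rule had chosen for it. The gene *bli-5*, which encodes a protein with a Kunitz-type protease inhibitor domain needed for an intact cuticle, was at 5.17 and 5.83 CPM in wild-type at 20ºC, 11.5 and 12 CPM in wild-type at 25ºC, 1.71 and 2.47 CPM in *mut-16* at 20ºC and 9.86 and 8.69 CPM in *mut-16* at 25ºC. The lipocalin-related *lpr-7* was at 14.5 and 14.2, 25.4 and 28.5, 5.45 and 5.74, and 19 and 18.3 CPM. The astacin metalloprotease *nas-27* was at 4.35 and 2.50, 6.91 and 6.36, 1.71 and 1.27, and 7.01 and 7.33 CPM.

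All 3 were called higher with heat in wild-type, with a log2(fold change) of 1.35 ± 0.21 (adjusted p = 0.00042) for *bli-5*, 1.15 ± 0.15 (adjusted p = 0.00010) for *lpr-7* and 1.19 ± 0.28 (adjusted p = 0.0078) for *nas-27*. The last had an adjusted p of 0.053 without replicate 2 of wild-type at 20ºC and of 0.061 without replicate 1 of wild-type at 25ºC, and both *lpr-7* (0.90) and *nas-27* (0.94) were under the limit with scaling by totals. With the mutation at 25ºC the values were -0.52 ± 0.20 for *bli-5* (adjusted p = 0.080), -0.70 ± 0.14 for *lpr-7* (adjusted p = 0.0038) and -0.07 ± 0.26 for *nas-27* (adjusted p = 0.90). The *bli-5* gene overlaps *cope-1*, at up to 97.6 CPM on the other strand, and *lpr-7* overlaps *rund-1*, at up to 5.32 CPM. The study used a directional library kit, but whether the counting used strand is not given in the sources used here.

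OSM-7 is a secreted protein that acts with Notch receptors and in the response to osmotic stress. The gene was at 32.4 and 25.6 CPM in wild-type at 20ºC, 69.2 and 69.0 CPM in wild-type at 25ºC, 13.6 and 15.2 CPM in *mut-16* at 20ºC and 52.8 and 53.4 CPM in *mut-16* at 25ºC. Its rise with heat in wild-type was 1.5 ± 0.14 (adjusted p = 7.2e-06) on the log2 scale. The uterine lumen gene *ule-4* was at 16.7 and 17.1, 42.4 and 33.0, 8.37 and 8.36, and 20.4 and 26.5 CPM, with 1.41 ± 0.18 (adjusted p = 0.00011). The chemoreceptor gene *str-146* was at 2.38 and 3.24, 6.91 and 7.42, 1.31 and 0.637, and 5.62 and 5.14 CPM, with 1.6 ± 0.29 (adjusted p = 0.0014). Of 1216 rows of chemoreceptor genes, 36 had enough counts to be tested. With heat in wild-type, 5 of these were called higher and 2 lower, against 5.30% and 4.19% of all genes tested.

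Cytochrome P450 enzymes oxidize foreign and endogenous small molecules, and UDP-glucuronosyltransferases attach sugars to them. The 172 detoxification and redox genes tested had 14 called higher and 20 lower with heat in wild-type, where 5.30% and 4.19% of all genes tested were. In the mutant at 25ºC, 8 were called higher and 5 lower, against 3.16% and 8.65% of all genes tested. In the mutant at 20ºC, 1 was called higher and 9 lower, against 1.53% and 3.03% of all genes tested. Of the 9, 5 are the members that the rule had chosen for it. Of these 5, *ugt-66* was called higher with heat in wild-type and the other 4 were not called. The *ugt-66* gene was at 12.8 and 8.88 CPM in wild-type at 20ºC, 21.5 and 24.9 CPM in wild-type at 25ºC, 3.13 and 5.26 CPM in *mut-16* at 20ºC and 31.0 and 25.9 CPM in *mut-16* at 25ºC, with 1.34 ± 0.21 (adjusted p = 0.00043) for heat in wild-type. For *ugt-41* that value was 0.77 ± 0.18 (adjusted p = 0.0098), below the limit.

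The gene *cyp-35C1* was at 32.4 and 25.2 CPM in wild-type at 20ºC, 18.4 and 18.2 CPM in wild-type at 25ºC, 10.1 and 10.4 CPM in *mut-16* at 20ºC and 21.3 and 20.0 CPM in *mut-16* at 25ºC, highest in wild-type at 20ºC. Heat in wild-type gave -0.41 ± 0.16 (adjusted p = 0.088) for *cyp-35C1*, -0.42 ± 0.38 (adjusted p = 0.49) for *cyp-33E3* and 0.37 ± 0.18 (adjusted p = 0.18) for *cyp-35A3*. With the mutation at 25ºC, *cyp-35A3* had -0.60 ± 0.18 (adjusted p = 0.034), below the limit of fold change. The *fmo-5* gene had values within 24.9 and 30.7 CPM in all 6 libraries outside *mut-16* at 20ºC, and 12.5 and 15.2 CPM in that group.

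Of 96 innate immune effector genes tested, 13 were called higher and 8 lower with heat in wild-type, against 5.30% and 4.19% of all genes tested. The infection response gene *irg-4* was at 105 and 139 CPM in wild-type at 20ºC, 62.7 and 60.1 CPM in wild-type at 25ºC, 57.1 and 45.0 CPM in *mut-16* at 20ºC and 108 and 107 CPM in *mut-16* at 25ºC. It was thus lower at 25ºC in wild-type, by -0.74 ± 0.18 (adjusted p = 0.0085), and higher in the mutant than in wild-type at 25ºC, by 0.63 ± 0.18 (adjusted p = 0.022), and passed the limit of fold change in neither. For *fipr-17*, of a family related to fungus-induced peptides, the values were 0.09 ± 0.23 (adjusted p = 0.83) and -0.15 ± 0.22 (adjusted p = 0.71). The gene *dod-23*, the one member among 102 intestinal genes tested, had 1.05 ± 0.40 (adjusted p = 0.086) with heat in wild-type.

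Oocyte and maternal genes are switched on as the germline turns from sperm to oocytes. The list of 30 such genes that the name rule left in place had 2 members, *cpg-3* and *pos-1*. The maternal RNA-binding gene *pos-1* was at 35.5 and 18.8 CPM in wild-type at 20ºC, 16.7 and 16.3 CPM in wild-type at 25ºC, 13.6 and 11 CPM in *mut-16* at 20ºC and 27 and 28.3 CPM in *mut-16* at 25ºC. The chondroitin proteoglycan gene *cpg-3* was at 21.9 and 19.8, 14.5 and 18.6, 7.65 and 3.87, and 16.3 and 17.5 CPM. The wild-type replicates at 20ºC thus stood well apart for *pos-1* and close together for *cpg-3*.

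Neither passed the test with heat in wild-type or with the mutation at 25ºC. The values were -0.47 ± 0.24 (adjusted p = 0.19) and 0.57 ± 0.23 (adjusted p = 0.11) for *pos-1*, and -0.09 ± 0.23 (adjusted p = 0.84) and -0.15 ± 0.23 (adjusted p = 0.72) for *cpg-3*. The B-type cyclin gene *cyb-2.1* was at 12.4 and 8.62, 7.93 and 6.55, 5.58 and 4.71, and 11.2 and 13.4 CPM, and *memi-2*, which acts at the turn from meiosis to mitosis in the embryo, was at 3.57 and 2.15, 3.66 and 3.07, 1.23 and 0.821, and 4.97 and 4.35 CPM. Over the 30 genes, the median log2(fold change) was -0.62 in the mutant at 20ºC, with 3 called lower, and 0.82 with heat in *mut-16*, with 8 called higher. Of all genes tested, 3.03% were called lower and 4.57% higher in these comparisons. In each count over the 30 genes, 2 are *cpg-3* and *pos-1*, which the rule had chosen for these values.

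The 3 genes called higher in the mutant than in wild-type at 25ºC were weakly expressed. F02E8.4 was at 1.48 and 0.925 CPM in wild-type at 20ºC, 0.546 and 0.408 CPM in wild-type at 25ºC, 0.202 and 0.0797 CPM in *mut-16* at 20ºC and 3.58 and 1.89 CPM in *mut-16* at 25ºC. Its log2(fold change) at 25ºC was 2.33 ± 0.51 (adjusted p = 0.0056), with an adjusted p of 0.069 without replicate 2 of wild-type at 25ºC and 0.089 without replicate 1 of *mut-16* at 25ºC. T12G3.6 was at 2.87 and 3.79, 2.18 and 1.39, 0.908 and 0.797, and 7.58 and 7.41 CPM, with 1.9 ± 0.30 (adjusted p = 0.00078). C49F5.6 was at 2.05 and 1.66, 1.18 and 1.47, 1.01 and 0.797, and 3.42 and 3.70 CPM. Its value was 1.24 ± 0.33 (adjusted p = 0.017), lost without any of the 4 libraries at 25ºC (adjusted p from 0.066 to 0.12) and with DESeq2 (adjusted p = 0.10).

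R07B1.9 was the one gene called lower with heat in wild-type. It was at 15.1 and 15.6 CPM in wild-type at 20ºC, 6.18 and 6.04 CPM in wild-type at 25ºC, 2.32 and 4.06 CPM in *mut-16* at 20ºC and 5.62 and 7.56 CPM in *mut-16* at 25ºC, so that both groups at 25ºC had about the same level. The log2(fold change) was -1.08 ± 0.23 (adjusted p = 0.0039) with heat in wild-type and -0.07 ± 0.24 (adjusted p = 0.89) with the mutation at 25ºC. It overlaps *glo-1*, at up to 10.1 CPM on the other strand.

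The members with the smallest ratio of *mut-16* to wild-type at 20ºC included C33A12.17, a pseudogene, whose wild-type libraries at 20ºC were far apart, at 0.903 and 6.01 CPM, with 0 and 0.319 CPM in *mut-16* at 20ºC. F36H12.9 was at 4.84 and 5.94 CPM in wild-type and at 0 and 1.70 CPM in *mut-16* at 20ºC. F14H3.6 was at 3.94 and 3.88 CPM in wild-type, 0.908 and 0.478 CPM in *mut-16* at 20ºC and 6.92 and 8.69 CPM in *mut-16* at 25ºC, with tighter replicates. By the ratio to *mut-16* at 25ºC, F36D1.8 (0.706 and 0.398 CPM at 20ºC, 5.95 and 5.52 CPM at 25ºC) and T12B5.14 (0.202 and 0.558 CPM at 20ºC, 3.01 and 3.18 CPM at 25ºC) were also among the lowest. Both were called higher with heat in wild-type, by 1.64 ± 0.33 (adjusted p = 0.0033) and 1.65 ± 0.34 (adjusted p = 0.0034). F26F2.10 was called too, at 1.86 ± 0.52 (adjusted p = 0.021), and lost the call without replicate 2 of wild-type at 20ºC (adjusted p = 0.083) or replicate 1 of wild-type at 25ºC (adjusted p = 0.12).

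Over all 112 genes, the mean was highest in wild-type at 25ºC for 46, in *mut-16* at 25ºC for 37 and in wild-type at 20ºC for 29. The order of means from wild-type at 25ºC through *mut-16* at 25ºC to wild-type at 20ºC, that of the R12E2 genes, was the most frequent, with 35 genes (31.2%). The rule had fixed *mut-16* at 20ºC as lowest and required a rise with heat in *mut-16*, which bears on these orders. Their shares over other genes were not taken. The summed level of the 112 genes was 2589 and 2482 CPM in wild-type at 20ºC, 4544 and 4347 CPM in wild-type at 25ºC, 1049 and 1026 CPM in *mut-16* at 20ºC and 3216 and 3184 CPM in *mut-16* at 25ºC. That sum is carried by the abundant genes, and the median ratio to the wild-type mean at 20ºC was 1.11 in both wild-type libraries at 25ºC and 1.16 and 1.20 in *mut-16* at 25ºC.

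The genes share few features of the annotation. Of the 112, 29 (25.9%) lie on chromosome V, beside 18% of the 12320 genes of at least 1 CPM in wild-type at 20ºC whose names were not dropped, and 12 (10.7%) on chromosome II, beside 17%. Protein-coding genes make up 108, with 3 pseudogenes (C33A12.17, ZK637.6 and T10C6.8) and 1 non-coding RNA (*srpr-2.2*). The median exon length of the protein-coding members was 1040 bases, beside 1422 for all protein-coding genes of that level, and they had a median of 4 exons, beside 6. A gene-class name was held by 42 (37.5%), beside 55.4%. Of the 112, 24 overlap a gene of at least 1 CPM on the other strand, among them *cpg-22*, H10E21.4 and Y52B11B.1. Reads of such pairs may have been mixed if the counting ignored strand. No promoter, motif or protein sequence was analysed here.

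Some markers of cell types differed between the groups as well. With the mutation at 20ºC, the log2(fold change) was 0.003 for *elt-2*, -0.20 for *ges-1* and -1.18 for *vit-2*, of the intestine. It was -0.47 for *pgl-1*, -0.32 for *glh-1* and -1.04 for *glh-2*, of the germline. In that comparison 0 of 18 vulva, uterus and spermatheca genes tested were called lower. Of 11 mitotic germline and P granule genes, 1 was, against 3.03% of all genes tested. A list of 18 oocyte and eggshell genes was of classes that the name rule excludes, such as *oma-1* and *puf-5*, whether or not they met the limits. Among the rows that met the limits and were dropped by name, 1 was of the class *egg-* and 1 of *puf-*. Of the 18 genes, 11 were lowest in both *mut-16* libraries at 20ºC, as were 7.77% of all genes tested. That order is a condition of the rule and was not particular to this list. It was held by 11 of the 30 oocyte genes left in place, 30 of 140 moulting and apical matrix genes and 24 of 172 detoxification genes. It was held by 1 of 76 sperm genes and 0 of 11 mitotic germline and P granule genes. The summed level of the 18 was 412 and 274 CPM in wild-type at 20ºC, 252 and 288 CPM in wild-type at 25ºC, 240 and 247 CPM in *mut-16* at 20ºC and 357 and 385 CPM in *mut-16* at 25ºC. The adult cuticle collagen gene *col-19* was at 27.8 and 21.6, 97.8 and 62.3, 5.65 and 6.13, and 33.9 and 40.2 CPM, the group order of the R12E2 genes. Other cuticle markers differed. The gene *dpy-7* was at 93.4 and 107, 23.3 and 41.1, 90.0 and 101, and 69.5 and 73.6 CPM, lowest in wild-type at 25ºC. The gene *rol-6* was at 502 and 477, 499 and 635, 337 and 347, and 525 and 508 CPM, with the order of means of *col-19* but overlap between the groups at 25ºC. The list of 7 yolk and adult cuticle genes to which *col-19* belongs did not have that order. With heat in wild-type, 1 of the 7 was called higher and 2 lower, against 5.30% and 4.19% of all genes tested. The median log2(fold change) of the 7 was -0.41. The part of these differences in the levels of the 112 genes was not tested.

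Sperm and muscle genes had other orders of the groups. The 82 sperm genes summed to 2998 and 2175 CPM in wild-type at 20ºC, 2707 and 3485 CPM in wild-type at 25ºC, 1435 and 1187 CPM in *mut-16* at 20ºC and 740 and 791 CPM in *mut-16* at 25ºC, so that *mut-16* at 25ºC was lowest. The 14 muscle genes summed to 15300 to 16840 CPM in the wild-type libraries, 18560 and 20670 CPM in *mut-16* at 20ºC and 16230 and 16770 CPM in *mut-16* at 25ºC, highest where the 112 genes were lowest. The 7 yolk and *col-19* genes had 5 called lower in the mutant at 20ºC, against 3.03% of all genes tested. Their sums were 653 and 764, 689 and 434, 294 and 442, and 300 and 405 CPM. Of the 14 heat shock genes, 4 were called higher and 2 lower with heat in wild-type, against 5.30% and 4.19% of all genes tested. None of the 14 is among the 112.

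**Figure D4:**
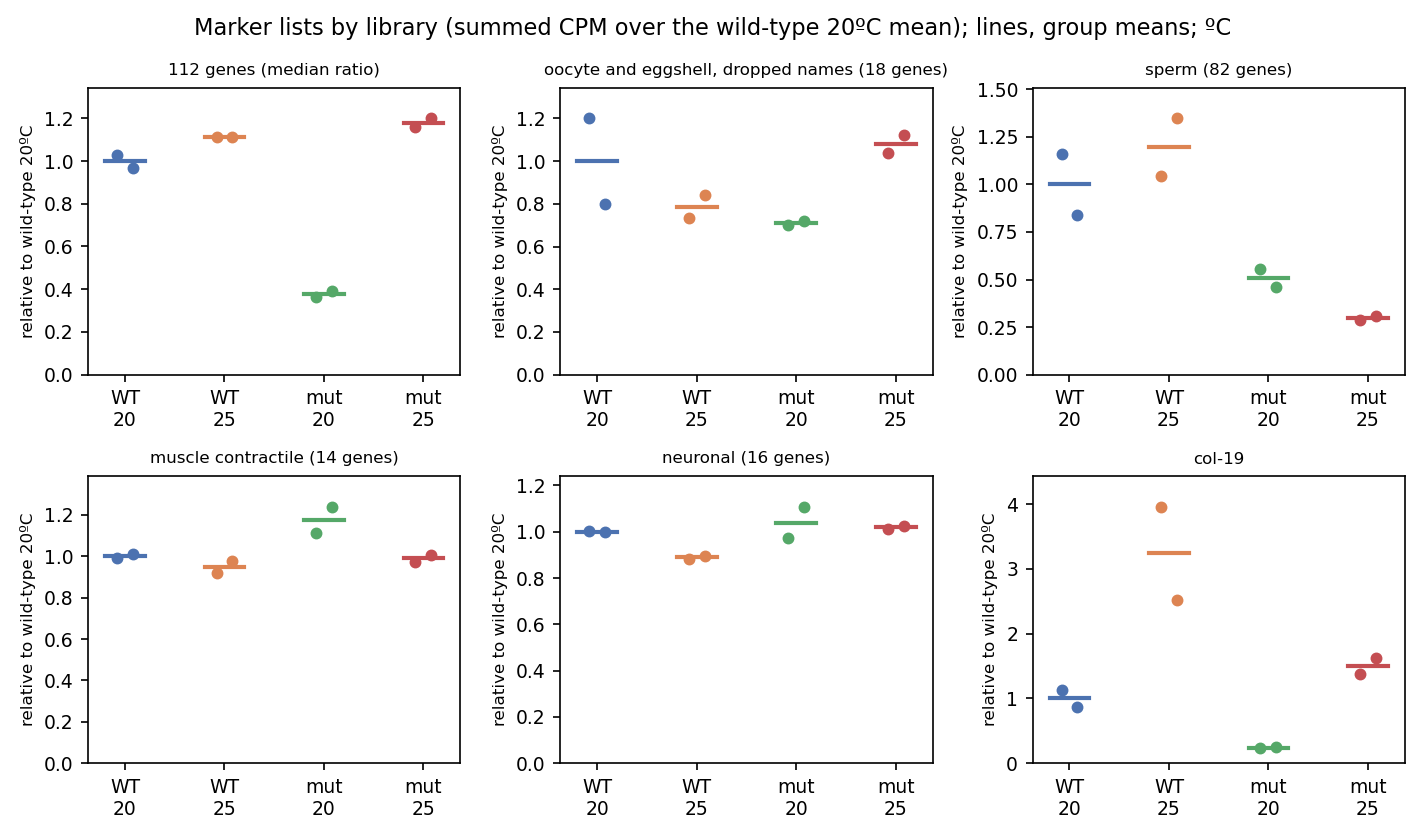
Level in each library (points) and group mean (line) relative to the wild-type mean at 20ºC, on a linear axis from 0, for the 112 genes as the median ratio, for 4 marker lists as summed CPM and for the single gene *col-19*. The list of 7 to which *col-19* belongs and the cuticle gene *dpy-7*, neither drawn here, did not share its order. WT is wild-type and mut is *mut-16*, at 20 or 25ºC. The lowest group is *mut-16* at 20ºC for the 112 genes, the oocyte genes and *col-19*, *mut-16* at 25ºC for sperm genes, and wild-type at 25ºC for muscle and neuronal genes.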

How the data were processed

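The authors trimmed adapters with Cutadapt 4.1, quantified reads with Salmon 1.9.0 on WS258 transcripts, and summed estimates over the transcripts of a gene. The deposited values are these expected counts, not scaled for library size or length, 1 library per file (columns not used: 0). They were rounded for testing. Of 46453 row names, 46256 matched Ensembl release 115 (WBcel235), 189 did not, 3 matched several genes and 4 were repeated. Members, gene lists and comparisons were chosen with earlier results of these data known.

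Genes were kept by filterByExpr (minimum count 10, minimum total 15), scaled by TMM (factors 0.858 to 1.10) then tested in edgeR 4.0.16 (R 4.3.3) by quasi-likelihood, on 4 groups of 2 libraries with no block. The biological coefficient of variation was 0.124. P-values were adjusted by Benjamini-Hochberg over 13972 genes in each contrast, and called at 0.05 with an absolute log2(fold change) above 1. SE is the absolute log2(fold change) over the root of F. Steps were tested on simulated data.

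Replicates are described as biological in the study. With 2 per group, an exact permutation test cannot go below 0.33, so single-gene spread leans on all genes. For genes of few counts, counting error alone is wide.

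Genes named are the 10 members with the highest wild-type mean at 20ºC, the 8 with the smallest ratio in each of the 2 fold limits, up to 5 called per direction in the 2 other comparisons, members of the lists, genes next to a limit, neighbouring members and *mut-16*. Others, such as *ule-4*, *cyb-2.1* and *memi-2*, were named after their values were seen. Alternatives were DESeq2 1.42.0, RLE or total-count scaling, other filters, a replicate block, 2 groups only, the adjusted p alone and each library left out, and for the member count other scalings, folds and floors. The other libraries of the study were not used here.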

Additional observations from a re-analysis of the deposited data

Results flagged for a closer look

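In 9 named genes both wild-type libraries at 25ºC lay below both at 20ºC, on TMM-scaled values, while both *mut-16* libraries at 25ºC lay above those at 20ºC, which the rule fixed. In CPM, both wild-type libraries at 25ºC lay below both at 20ºC for 22 of the 112 genes (19.6%), against 46.3% of all genes tested. Of the 9, only C30G12.2, R07B1.9 and *irg-4* had an edgeR adjusted p of at most 0.05 with heat in wild-type. The log2(fold change) with heat was -0.11 in wild-type and 1.37 in *mut-16* for C04G6.2, -0.47 and 1.14 for C30G12.2, and -0.24 and 2.05 for C49F5.6. It was -1.09 in wild-type for F02E8.4, -1.08 and 1.10 for R07B1.9, and -0.65 and 3.20 for T12G3.6. It was -0.42 and 1.10 for *cyp-33E3*, -0.41 and 1.08 for *cyp-35C1*, and -0.74 and 1.14 for *irg-4*. The difference between the genotypes was not tested, because the choice of genes used the *mut-16* values.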

How the results depend on the processing

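The rule kept 112 genes on library totals. It kept 374 at a ratio of at most 1 in 1.5, 24 at 1 in 3, 50 with a floor of 5 CPM, 172 with no names dropped, and 117 to 206 with each library left out. Scaling by TMM gave 123, with 106 shared, and DESeq2 size factors gave 108, with 99 shared. Members called with the mutation at 25ºC numbered 7, but 11 with no filter, 4 with at least 10 counts in every library, 24 by adjusted p alone, and 4 to 11 with each library left out. Its median was -0.15, 0.025 with scaling by totals, and -0.30 to -0.11 with each library left out. The median for heat in wild-type was 0.37, and 0.13 with scaling by totals. For heat in *mut-16* the median was 1.74, and 1.498 with at least 10 counts in every library, where 63 members were tested. Calls with each library left out ranged from 24 to 72 for the mutation at 20ºC and from 59 to 94 for heat in *mut-16*, where fewer libraries entered the fit. The cause of these shifts was not tested. Among the named genes, no called direction reversed under these alternatives.

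Deviations of same-numbered libraries correlated between -0.20 and 0.09. The largest in size was -0.20, between wild-type and *mut-16* at 20ºC. Whether libraries form pairs, under the same or crossed numbers, is not known, and the main fit had no block. With a replicate block, 31 members were called with heat in wild-type, 8 with the mutation at 25ºC, 67 with the mutation at 20ºC and 84 with heat in *mut-16*, and a crossed block, chosen after seeing the data, gave 80 with the mutation at 20ºC. With 2 libraries per group and 62 members under 5 CPM, smaller differences were not detectable at this depth.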
